A study of Sus scrofa with 6 samples.

Results

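Of the 236 rows that carried the name of a pig miRNA on the liver microarrays, 88 (37.3%) had no signal on any of the 6 arrays. These 88 miRNAs are described here. They were selected on that lack of a signal, so the blank cells themselves are a description and no test was made of them. The arrays were hybridized with liver RNA of newborn male piglets of 2 breeds, Large White (LW), a lean Western breed, and Erhualian (EHL), a Chinese breed, with 3 arrays for each breed. The RNA on an array was pooled from a pair of littermates and no piglet received a treatment, so breed was the only labelled difference between the groups. The paper took the piglets from 2 neighbouring farms, and the labels do not say whether farm went with breed. Nothing in the labels ties an LW array to the EHL array of the same number. Small RNAs were tailed with poly(A), stained with the single dye Cy5 and read as fluorescence intensity.

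A miRNA is a short RNA cut from a hairpin precursor. Either arm of the hairpin can be kept, and an ending of 5p, 3p or a star in the name tells the arms apart. The seed, the stretch behind the first base, pairs with messenger RNAs and so defines a family of miRNAs with shared targets. Many miRNAs are made in 1 tissue or cell type only. The liver is known for miR-122, which is almost wholly a hepatocyte miRNA, whereas miR-1 and miR-206 belong to muscle, miR-124 and miR-9 to neurons, and miR-216 and miR-217 to the exocrine pancreas. Several miRNA genes lie in clusters that are transcribed as 1 precursor, such as the miR-17 cluster and the large imprinted cluster between DLK1 and DIO3.

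The letters of 3 of the 88 miRNAs stand in the study's list of forward primers for RT-qPCR, and they are shown because these miRNAs were blank on every array but were assayed by another method. Each primer is DNA, written 5′ to 3′, with bases 2 to 8 in capitals, which is the place of the seed if the primer starts at the first base of the miRNA.
miR-146a: tGAGAACTgaattccatgggtt
miR-216: tAATCTCAgctggcaactgtg
miR-652: aATGGCGCcactagggttgtg
The primers were 21 or 22 bases long. Their GC content was 40.9% for miR-146a, 47.6% for miR-216 and 57.1% for miR-652. Their bases 2 to 8 differed from each other, so the 3 belong to separate families. Of miR-146a, a brake on inflammatory signalling, of miR-216, a pancreatic miRNA, and of miR-652, the array gave no level in either breed. By RT-qPCR the paper reports miR-216 as higher and miR-652 as lower in EHL, and no significant difference for miR-146a.

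The labelled tissue was checked against 4 hepatocyte miRNAs, of which 3 had a signal on every array. The signal of miR-122 was 28071, 18958 and 23800 on LW arrays 1 to 3 and 20649, 20007 and 18287 on EHL arrays 1 to 3. The signal of miR-192 was 4106, 4679 and 3985 in LW and 5592, 3640 and 4832 in EHL. The signal of miR-148a was 824, 1326 and 1037 in LW and 2256, 669 and 1018 in EHL. The breeds overlapped for each of these. The fourth, miR-194, was blank on all 6 arrays although its name is in the study's list of sequenced liver miRNAs.

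Muscle miRNAs were almost wholly blank. Of 8 rows in the list of skeletal and cardiac muscle, 7 were blank on all 6 arrays, or 87.5%, beside 37.3% of all named rows. They were miR-1 and miR-206, which drive muscle differentiation, miR-133b, which is encoded beside miR-206, miR-133a-5p, and the myosin-gene miRNAs miR-208b, miR-499-5p and miR-499-3p. The remaining row, miR-133a-3p, had a signal of 17 on LW array 2, 14 on LW array 3 and 14 on EHL array 1, and was blank on the other arrays. The minimum of the listed signals was between 10 and 16, depending on the array, so these signals were close to the lowest listed. In such bulk samples, fewer cells of a type and less RNA per cell cannot be told apart. None of the 7 blank muscle miRNAs had its exact name among the sequenced miRNAs. With its arm mark dropped, miR-133a-5p did match a sequenced name, one that the row miR-133a-3p shares. The paper reports miR-133a from sequencing and RT-qPCR, without an arm in the name.

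Neural miRNAs were blank in 6 of 7 rows, or 85.7%. These were miR-124a and miR-9-1, the best known miRNAs of neurons and neural progenitors, miR-153 and miR-129, which are brain miRNAs, miR-218, a motor neuron miRNA, and miR-7, a miRNA of neuroendocrine cells. The seventh row was miR-128, with 63, 74 and 71 in LW and 72, 74 and 106 in EHL, so it was listed throughout. The names miR-129, miR-218 and miR-7 were in the sequenced list and miR-124a, miR-9-1 and miR-153 were not. A blank row on the array thus stood beside a sequenced name for 3 of the 6.

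The 13 blank miRNAs of the DLK1-DIO3 imprinted region formed the largest group among the lists, out of 17 rows (76.5%). They were miR-136, miR-323, miR-369, miR-376a, miR-376a*, miR-376b, miR-376c, miR-381, miR-411, miR-432-5p, miR-487b, miR-494 and miR-758. The miRNAs of this region are expressed from the maternal chromosome, mainly in embryo, placenta, brain and muscle. Of its 4 other rows, miR-299 had a signal on all arrays, with 23, 15 and 19 in LW and 15, 19 and 18 in EHL. The row of miR-127, which lies beside miR-136 and miR-432, had 26, 21 and 19 in LW, 22 on EHL array 1 and 33 on EHL array 3, and was blank on EHL array 2. The row of miR-432-3p had 13 on LW array 2, 14 on LW array 3 and 16 on EHL array 2, and miR-382 had 16 on LW array 1 and 14 on EHL array 1. So the listed rows of the region had signals no higher than 33. The names miR-136, miR-376a*, miR-376b and miR-381 were in the sequenced list, 4 of the 13.

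Both pancreatic rows were blank. The planned pancreatic markers also included miR-375, which had no row here. The paper reports miR-375 from sequencing of these livers and gives it as lacking a probe. The 2 blank rows thus do not stand for all pancreatic miRNAs. The genes of miR-216 and miR-217 neighbour each other, and the name miR-216 was in the sequenced list and miR-217 was not. Of the 5 rows for miRNAs that lie among the HOX genes, which set position along the body axis, 4 were blank, namely miR-10b, miR-196a, miR-196b-5p and miR-196b-3p. The fifth, miR-10a, had 14, 14 and 23 in LW, 15 on EHL array 1, and no signal on EHL arrays 2 and 3. None of the 4 blank HOX miRNAs was in the sequenced list by exact name. Of 3 eye and sensory rows, miR-183 was blank and its name was sequenced, whereas miR-184 and miR-204 had a signal on every array.

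Of 10 immune rows, 3 were blank, beside 37.3% of all named rows. These were miR-146a, miR-155, which activated lymphocytes and macrophages make, and miR-181d-3p. The names miR-146a and miR-155 were sequenced. Signals on all 6 arrays were present for miR-181a, miR-181b and miR-342, and miR-181c was listed on 4. The general leukocyte miRNA miR-142 had 12 on EHL array 3 and was blank elsewhere. Neither erythroid row was blank. The signal of miR-451, a red cell miRNA, was 220, 100 and 134 in LW and 376, 54 and 63 in EHL, and that of miR-486 was 29, 24 and 25 in LW and 34, 24 and 22 in EHL. The newborn liver still forms blood cells, but the source of the erythroid signals was not tested. The array held 0 rows of the embryonic stem cell list, so nothing can be said of embryonic miRNAs such as the miR-302 family. The single epithelial row, miR-205, had 11 on LW array 2 and 15 on LW array 3.

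**Figure D1:**
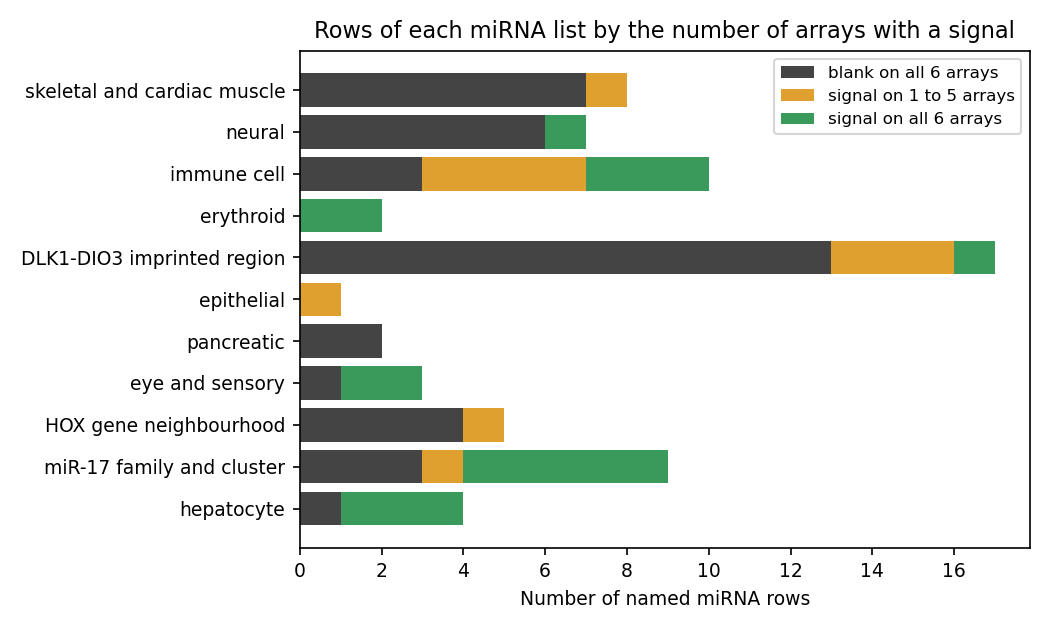
Number of named miRNA rows (horizontal axis) in each list, divided into rows blank on all 6 arrays (dark), rows with a signal on 1 to 5 arrays (yellow) and rows with a signal on all 6 (green). Muscle (7 of 8), neural (6 of 7), imprinted-region (13 of 17), HOX (4 of 5) and pancreatic rows (2 of 2) were mostly blank, and erythroid rows (0 of 2) were not.

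In the miR-17 family and its relatives, which are known for driving cell growth, 3 of 9 rows were blank (33.3%) while 5 were listed on all arrays. The row of miR-18, which belongs to the cluster but is not in the list, was also listed on all arrays, with 31, 20 and 22 in LW and 32, 20 and 32 in EHL. The blank rows were miR-19a, miR-17-3p and miR-92b-5p. The genes of miR-17, miR-18, miR-19a, miR-20, miR-19b and miR-92a neighbour each other. Within that cluster miR-17-5p had 989, 826 and 718 in LW and 1014, 721 and 754 in EHL, and miR-92a had 8411, 6361 and 7359 in LW and 4862, 7280 and 7767 in EHL. The closest relative of miR-19a, miR-19b, had 64, 30 and 57 in LW, 65 on EHL array 1 and 28 on EHL array 3, and no signal on EHL array 2. The cluster thus held 2 blank rows, miR-19a and miR-17-3p, beside listed ones, and the name miR-19a was in the sequenced list.

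The lists held 40 of the 88 miRNAs, and 48 were in none. Among those 48, miR-126*, miR-24*, miR-22-5p, miR-345-5p, miR-365-5p, miR-374a*, miR-450c-3p, miR-542-5p, miR-664-3p and miR-676-5p are arms whose partner arm had a signal on at least 1 array, and so is miR-140. Both arms were blank for miR-708, which lies in a neuronal gene (rows miR-708-5p and miR-708-3p). The same held for miR-1839-5p and miR-1839-3p, for miR-374b-5p and miR-374b-3p, and for miR-450b-5p and miR-450b-3p. The rows of miR-450a and miR-503, which belong with miR-450b and miR-542 to an X-linked cluster, were blank too. The cluster was not wholly blank, however. The row of miR-450c-5p had 27, 31 and 30 in LW, 85 on EHL array 1 and 28 on EHL array 3. The row of miR-542-3p had 18 on LW array 2 and 26 on EHL array 1. Members of broad families were miR-98, miR-29c, miR-32, miR-363, miR-301, miR-34c and miR-497. The row of miR-34c, a p53 target, was blank, and so were miR-335, which lies in the imprinted gene MEST, miR-338, a miRNA of oligodendrocytes, miR-202, a gonadal miRNA, and miR-224, which lies in the GABRE gene. The others were miR-105-1, miR-105-2, miR-95, miR-135, miR-325, miR-340, miR-421, miR-504, miR-628, miR-652, miR-769, miR-1277, miR-4333, miR-4336, miR-4337 and miR-4338.

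The arm that was blank could be compared with its partner. For 41 hairpins the array had exactly 2 rows that differed only in arm, and of these 7 had both arms blank, 16 had 1 arm blank and 18 had neither blank. In all, 30 of the 88 miRNAs belonged to such hairpins. The blank share of the rows of these hairpins was close to the 37.3% of all named rows. The 7 with both arms blank were miR-196b, miR-374b, miR-376a, miR-450b, miR-499, miR-708 and miR-1839. In 7 of the 16 hairpins with 1 blank arm the other arm had a signal on all 6 arrays, and in 9 it had a signal on 1 to 5.

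The hairpin of miR-126, an endothelial miRNA, had a bright and a blank arm. Its main arm had 2209, 4098 and 3436 in LW and 4524, 3110 and 3506 in EHL, and miR-126* was blank throughout although its name was sequenced. The arm miR-92b-3p had 1112, 1141 and 1466 in LW and 782, 1121 and 969 in EHL, and miR-92b-5p was blank. The arm miR-24 had 395, 357 and 274 in LW and 426, 477 and 814 in EHL, and miR-24* was blank. In these 3 hairpins the blank row was the arm generally taken to be the less used. The case of miR-140, a cartilage miRNA, was the other way round. There miR-140* had 115, 70 and 72 in LW and 84, 161 and 203 in EHL. The row named miR-140 was blank, and both names were in the sequenced list. The paper counts miR-140 among the sequenced miRNAs that its array detected, with an array ratio toward EHL that it did not call. The row miR-140* had a mean of 85.7 in LW and 149 in EHL, whereas the row miR-140 had no value. The array value that the paper gives for miR-140 may thus be that of the row named miR-140* here. The arm miR-345-3p had 66, 81 and 65 in LW and 107, 25 and 30 in EHL beside a blank miR-345-5p, and miR-22-3p had 44, 34 and 50 in LW and 42, 27 and 33 in EHL beside a blank miR-22-5p. The signals of the breeds overlapped for these listed arms except miR-24, for which each EHL array was above each LW array. An exact permutation test of so few arrays gives p = 0.1 at the lowest. Such separation was not particular to miR-24. It was also seen for miR-184, with 28, 24 and 16 in LW and 61, 86 and 73 in EHL. For miR-27a, with 131, 148 and 143 in LW and 98, 76 and 63 in EHL, it went the other way. The share over all listed rows was not computed, so no breed difference is read from miR-24. The names miR-140 and miR-140* come from an older naming in which the star marked the arm thought to be less used.

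**Figure D2:**
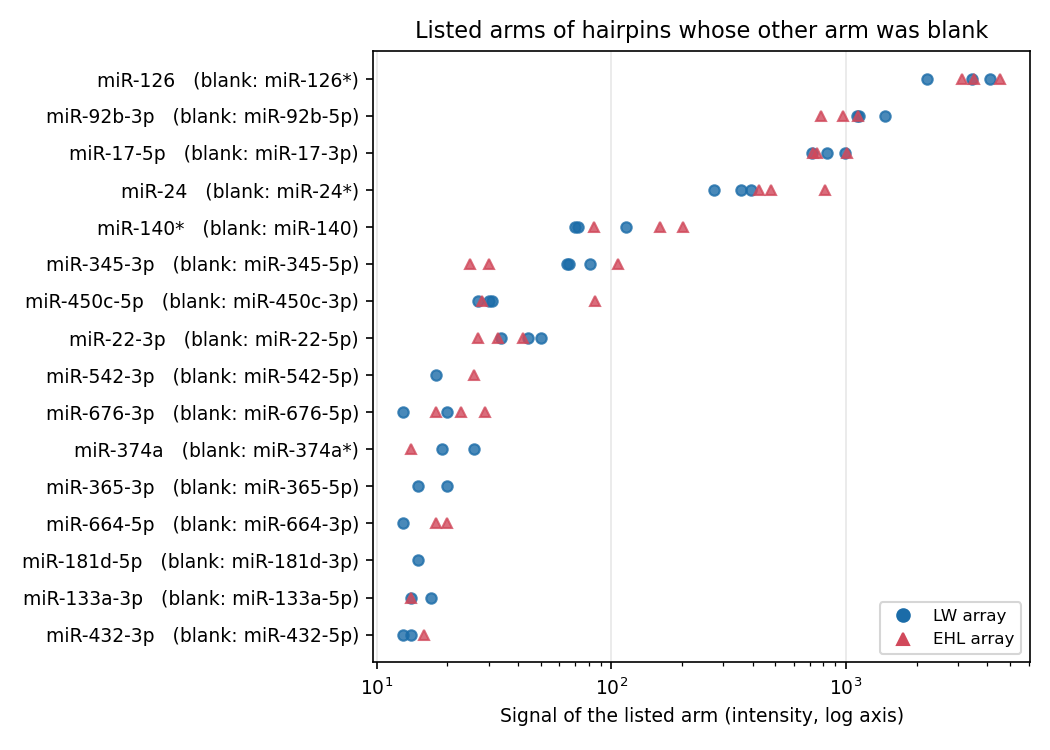
Signal of the listed arm on each array (horizontal log axis, intensity) for the 16 hairpins in which the other arm was blank on all 6 arrays, with LW arrays as circles and EHL arrays as triangles. The listed arms ran from single signals near 15 (miR-181d-5p on LW array 1) to between 2209 and 4524 (miR-126), so a blank arm occurred beside both faint and bright partners.

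Families with a shared seed were put together from general knowledge after the signals had been seen. In 13 such families there were 16 blank miRNAs, and in 11 of these families at least 1 other row had a signal. The set was not complete. The rows of miR-376 and of miR-105, all blank, were left out of it, so these counts are no share over all families. Of the let-7 family, which keeps cells differentiated, all 6 let-7 rows were listed on every array and miR-98 was blank. The signal of let-7f, whose gene neighbours that of miR-98, was 374, 645 and 811 in LW and 438, 476 and 139 in EHL. In the miR-29 family, which restrains collagen, miR-29a had 621, 284 and 394 in LW and 492, 240 and 583 in EHL, miR-29b had 11 on EHL array 1 only, and miR-29c was blank. In the miR-92a family, miR-32 and miR-363 were blank beside the signals of miR-92a given with its cluster. In the miR-15 family, which slows the cell cycle, miR-497 was blank, and its neighbour miR-195 had 35, 41 and 56 in LW and 48, 43 and 36 in EHL. The names miR-98, miR-29c, miR-32, miR-363 and miR-497 were all in the sequenced list. Listed rows of the same family were also present for miR-301, beside miR-130b with 60, 54 and 54 in LW and 76, 83 and 119 in EHL, and for miR-34c, beside miR-34a with 18 and 10 on LW arrays 1 and 2 and 27 on EHL array 3. Among the 13, the families of miR-1 with miR-206 and of miR-196 were wholly blank.

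Neighbouring genes were looked up in the RefSeq gene table of the pig assembly Sscrofa11.1, in which 71 of the 88 had a gene. Of these, 25 had another named row within 10 kb. For 9 the neighbours were all blank too, in the groups miR-206 with miR-133b, miR-216 with miR-217, miR-105-1 with miR-105-2, and miR-374b with miR-421. For 16 at least 1 neighbour was listed, and for 7 a neighbour was listed on all arrays. The 7 were miR-17-3p, miR-19a, miR-24*, miR-98, miR-194, miR-363 and miR-497. Rows without a gene in the RefSeq table, such as miR-424 with a signal on all 6 arrays, could not count as neighbours. The gene that the table pairs with the name miR-194 lies beside miR-215, which had 123, 366 and 480 in LW and 317, 104 and 37 in EHL. The genes of miR-24 lie with those of miR-23 and miR-27. The rows miR-23a, miR-23b, miR-27a and miR-27b had a signal on all 6 arrays and miR-27b* on 2. The signal was 1222, 1341 and 1319 in LW and 1223, 1313 and 1433 in EHL for miR-23b.

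The names were set against the list of miRNAs that the study sequenced from liver, which holds 211 names above a minimum read count. Of the 88 blank miRNAs, 30 (34.1%) had their exact name in that list. The share was 30 of 52 (57.7%) for rows with a signal on 1 to 5 arrays and 76 of 96 (79.2%) for rows with a signal on all 6. The 30 were miR-126*, miR-129, miR-135, miR-136, miR-140, miR-146a, miR-155, miR-183, miR-194, miR-19a, miR-216, miR-218, miR-29c, miR-32, miR-335, miR-340, miR-34c, miR-363, miR-374b-3p, miR-374b-5p, miR-376a*, miR-376b, miR-381, miR-421, miR-497, miR-504, miR-652, miR-7, miR-769 and miR-98. Among the 30, miR-140 is one that the paper counts as detected on its array, which may refer to the row named miR-140*. With arm and star marks dropped from both names, 11 more matched, which gave 41 of 88 (46.6%). These were miR-133a-5p, miR-17-3p, miR-181d-3p, miR-24*, miR-345-5p, miR-365-5p, miR-376a, miR-4336, miR-664-3p, miR-676-5p and miR-92b-5p. The remaining 47 had no match under either rule. The sequenced list merges miRNAs that differ by few bases outside the seed, so a name can be missing while its reads stand under a relative. Forms such as miR-9-1 and miR-124a were not shortened before matching, so another form of a name could also be missed. The sequencing was of 1 pool per breed, and its read counts were not used here.

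What a blank can say was read from the rows that were blank on some arrays only. There were 17 rows with a signal on exactly 1 array, the nearest to the rule, and their signals ran from 11 to 18. They were miR-142, miR-143-5p, miR-146b, miR-181d-5p, miR-186, miR-199b, miR-210, miR-29b, miR-30b-3p, miR-339-3p, miR-361-3p, miR-383, miR-935, miR-1224, miR-1271, miR-1296 and miR-4331. Among them, miR-146b, the close relative of the blank miR-146a, had 12 on EHL array 3, and miR-181d-5p, the partner of the blank miR-181d-3p, had 15 on LW array 1. Over the 52 rows with a signal on 1 to 5 arrays the median of the row means was 16.5, beside 209 for the 96 rows listed on all arrays. Rows with fewer listed arrays thus had faint signals where they had any.

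A blank on 1 array did not go with a faint signal on every other array, however. The row of miR-101 was blank on EHL array 2 and had 67, 66 and 63 in LW, 159 on EHL array 1 and 29 on EHL array 3. That array had the most blanks, 135, and the highest minimum signal, 16. Of the 12 rows listed on 5 arrays, all but miR-676-3p were blank on EHL array 2, so this case rests largely on 1 array. The row of miR-299, listed on all arrays, had a mean of 18.2. Of the 96 rows listed on all arrays, 29 had a mean signal at or under 76.8, the mean of miR-101. The paper attributes undetected miRNAs to low fluorescence. It also proposes that base differences from the probe sequences may have kept some sequenced miRNAs from being detected. Neither was tested here. The miRNAs that the paper calls undetected were not the same set as the blank rows. It marks miR-193a-3p, miR-362 and miR-210 as undetected, yet miR-193a-3p had a signal on 5 arrays, miR-362 on 2 and miR-210 on 1. Since the sources give no exact rule for a blank, the cell gives neither a level nor an upper bound for any of the 88 miRNAs. It also gives no difference between the breeds, and it does not say that the miRNA was absent from the liver, where 30 of the 88 names were also sequenced. The table held 0 cells with a value of 0.

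**Figure D3:**
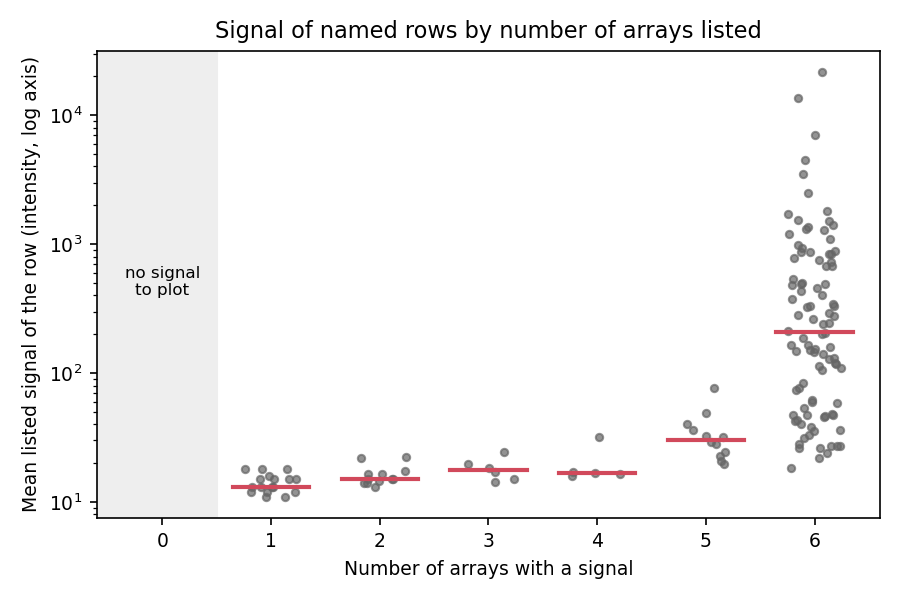
Mean listed signal of each named row (vertical log axis, intensity) by the number of arrays on which it had a signal, with 1 point per row and the median as a red line. The medians were 13.0 for rows on 1 array and 209 for rows on 6, the ranges of rows on 5 and on 6 arrays overlapped, and the 88 rows with no signal have nothing to plot.

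Blank cells were counted on each array to see whether the breeds differed. Of the 236 named rows, 117, 102 and 115 were blank on LW arrays 1 to 3 and 113, 135 and 119 on EHL arrays 1 to 3. The 88 miRNAs made up between 65.2% of these blanks on EHL array 2 and 86.3% on LW array 2. The LW arrays averaged 111 ± 8.14 blank rows and the EHL arrays 122 ± 11.4 (SD, n = 3 per breed). The difference of 11.0 rows did not pass an exact two-sided permutation test (p = 0.4), for which 0.1 is the lowest p possible with so few arrays. The counts of the breeds overlapped, since EHL array 1 had fewer blanks than LW arrays 1 and 3. EHL array 2 had the most blanks and the highest minimum signal, 16, and LW array 2 had the fewest blanks and the lowest minimum, 10, and the part of that in the counts was not tested.

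Taken by breed, 97 named rows were blank on all LW arrays and 103 on all EHL arrays. Beyond the 88, 9 rows were blank in LW and listed on at least 1 EHL array, and 15 were blank in EHL and listed on at least 1 LW array. Of these 24 rows, 17 were the rows listed on 1 array. The others were miR-362 on the EHL side and miR-205, miR-30e-3p, miR-326, miR-331-5p, miR-365-3p and miR-490 on the LW side. There were 0 rows blank on all arrays of 1 breed and listed on all arrays of the other.

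**Figure D4:**
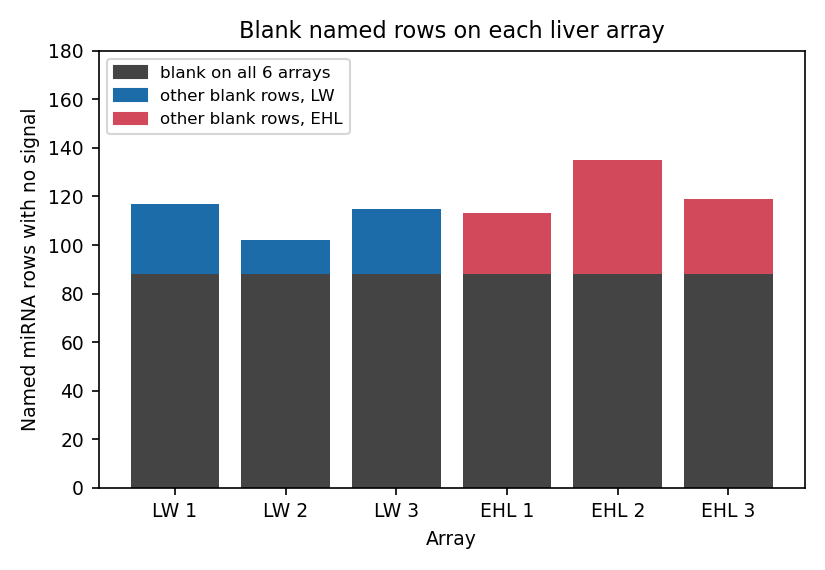
Number of named miRNA rows with no signal on each array (vertical axis), with the 88 blank on all 6 arrays in dark and the other blank rows in blue (LW) or red (EHL). The totals ran from 102 on LW array 2 to 135 on EHL array 2, and those of the breeds overlapped.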

How the data were processed

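The authors subtracted the background from the Cy5 signal of each spot, normalized it by LOWESS and deposited linear intensities, 1 per row and array, written as whole numbers or left blank. The rule for a blank is not given in the sources used here, though the study's notes speak of low fluorescence. The 100 rows labelled LRS, which name no miRNA, were left out. Signals were used as deposited, with no further scaling. Members were the named rows without a value on any array. The members and the tissue lists were chosen with earlier results of these data known, and every member is named. Sequenced names were matched exactly after the species prefix was removed, and only names were taken from that list. Mature sequences were not used here, so that the planned GC and seed comparison was not run. Neighbours were RefSeq miRNA genes within 10 kb in Sscrofa11.1. The counts per array were compared by an exact permutation test, checked on simulated data. Pools of separate litters are the replicates. Python 3.11.15, numpy 2.4.6 and pandas 2.3.3 were used. The number of arrays limits the precision.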

Additional observations from a re-analysis of the deposited data

How the results depend on the processing

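The 88 miRNAs stayed within the blank rows in every alternative below, as each of them can only add rows. Without any 1 array the number of rows blank on the rest was between 88 and 95. It was 97 on the LW arrays alone, 103 on the EHL arrays alone, 105 with at most 1 listed array allowed, 119 with signals of at most 20 also counted as blank, and 122 with the LRS rows. With signals of at most 32 also counted as blank it moved to 135. With EHL array 2 and LW array 2 both left out, an alternative chosen after seeing the data, it was 96. The difference in blank rows per array, EHL minus LW, kept its direction throughout. It was 11.0 with the same-numbered arrays as a replicate block (exact sign-flip test, p = 0.75, with 0.25 the lowest possible, where the labels do not say that a number pairs arrays), between 4.67 without EHL array 2 and 15.7 without EHL array 1 when 1 array was left out (6.33 without LW array 2), 12.7 with the LRS rows, and 1.67 with signals of at most 20 counted as blank. The exact p ranged from 0.1 to 1.0 over the settings. Matching without arm marks raised the sequenced names from 30 to 41. The GC content of bases 2 to 8 was not computed, since the mature sequences were not used here. Faint signals limit these results, because a blank has no value from which an error could be given.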
